A study of Homo sapiens with 6 samples.

Results

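The genes described here encode 7 subunits of neuronal nicotinic acetylcholine receptors, *CHRNA3*, *CHRNA4*, *CHRNA5*, *CHRNA7*, *CHRNA9*, *CHRNB2* and *CHRNB4*. They were chosen by name and found by matching the Ensembl identifiers of the count table to GENCODE symbols, which placed all 7 among its 67060 genes. The cells were SH-SY5Y, a human neuroblastoma line. Both groups received an adenovirus with a CMV promoter (0.5 µl) and RNA was taken after 24 h. In the GFP group the virus was Ad CMV GFP, the control, and in the Flag-ERRg group it was Ad CMV 3xFlag-*Esrrg*, which carries the mouse coding sequence of the orphan nuclear receptor ERRγ with a Flag tag. Each group had 3 libraries, numbered 1, 3 and 4 for GFP and 2, 3 and 4 for Flag-ERRg, prepared from total RNA depleted of ribosomal RNA. Nothing in the labels says that replicates were separate cultures, so p-values measure the spread between these libraries, which may be technical. *ESRRG* had 2357, 2796 and 2876 counts with GFP and 15228, 25994 and 26497 with Flag-ERRg, as the labels give it.

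Nicotinic receptors are ion channels in the cell membrane that open when acetylcholine binds, and each is a ring of subunits. Alpha subunits hold the main face of the binding site, and *CHRNB2* and *CHRNB4* supply the complementary face in receptors of mixed subunits. The receptor of autonomic ganglia is built mainly from the products of *CHRNA3* and *CHRNB4*, with *CHRNA5* as an accessory subunit that does not form channels without partners, and sympathetic neurons are the lineage from which neuroblastoma arises. *CHRNA4* and *CHRNB2* make the most common receptor of the brain. *CHRNA7* forms receptors of its own, and *CHRNA9* works with *CHRNA10* in hair cells of the inner ear. *CHRNA5*, *CHRNA3* and *CHRNB4* lie side by side on chromosome 15, and common variants in this cluster are known for their link to smoking behaviour.

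Promoter sequence is shown for 3 members, since those of *CHRNA3* and *CHRNB4* belong to genes that moved together in these libraries and that of *CHRNB2* to a gene whose groups overlapped. The sequences are from RefSeq (GRCh38.p14), whose table held 5 of the 7 members. It had no entry for *CHRNA4*, or for *CHRNA5*, which also moved with *CHRNA3* and *CHRNB4*. *CHRNA7* and *CHRNA9* had entries but are not shown. The 3 members were picked by their values here, so their windows do not compare lower with unchanged genes. The windows searched were the 250 bases before each RefSeq start. Letters searched on both strands were GGGCGG (the GC box, a motif of SP1 and SP3), AAGGTCA (a motif of ERR receptors) and TGANTCA (the AP-1 site, a motif of JUN). Matches on either strand are in capitals. For *CHRNA3* the 29 bases at chr15:78621014-78621042 on the minus strand are given, which run from 46 to 18 bases before the start. For *CHRNB4* the 216 bases at chr15:78641245-78641460 on the minus strand are given, which run from 250 to 35 bases before it. For *CHRNB2* the whole window at chr1:154567528-154567777 on the plus strand is given.
CHRNA3: CCGCCCcgcgcacgcCCGCCCGCCCGCCC
CHRNB4: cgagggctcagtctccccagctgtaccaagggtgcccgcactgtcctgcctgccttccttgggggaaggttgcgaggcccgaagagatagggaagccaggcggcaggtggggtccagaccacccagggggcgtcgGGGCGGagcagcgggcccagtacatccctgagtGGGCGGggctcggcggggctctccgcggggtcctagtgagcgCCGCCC
CHRNB2: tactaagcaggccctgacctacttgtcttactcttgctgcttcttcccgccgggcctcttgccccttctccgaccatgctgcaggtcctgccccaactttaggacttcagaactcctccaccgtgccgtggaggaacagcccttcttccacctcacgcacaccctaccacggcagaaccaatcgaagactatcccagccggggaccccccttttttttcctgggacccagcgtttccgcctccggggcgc

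The *CHRNA3* window held 4 GC boxes, which began 46, 31, 27 and 23 bases before the start, and the last 3 overlap one another. The *CHRNB4* window held 3 GC boxes, at 115, 82 and 40 bases. The *CHRNB2* window held none of the 3 motifs, and no window of the 3 held AAGGTCA or TGANTCA. GC content was 73.6% for *CHRNA3*, 72.4% for *CHRNB4* and 60.4% for *CHRNB2*, against a median of 58.0% over all 34943 windows of the same length. Among those windows, 14868 (42.5%) held GGGCGG, 1203 (3.4%) AAGGTCA and 2303 (6.6%) TGANTCA. A match is a run of letters and not evidence of binding, and an absent match says only that these letters are not in the window. In GENCODE other transcripts of *CHRNA3* and *CHRNB4* start farther upstream, so their RefSeq windows lie partly or wholly inside annotated transcripts.

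The reads counted on genes numbered 24969759 to 29700980 in the GFP libraries and 26513620 to 40859666 in the Flag-ERRg libraries. The share of reads assigned to no gene was 51.3% to 52.2% with GFP, and 46.6%, 31.6% and 29.5% in Flag-ERRg replicates 2, 3 and 4, so Flag-ERRg replicate 2 stood apart from the other two. Among markers of adrenergic neuroblastoma cells, the summed level was 1065 to 1113 CPM (counts scaled to library size) with GFP and 768 to 1001 CPM with Flag-ERRg. Of these 10 markers 8 were tested, and *PHOX2A* was called higher and *DBH* and *STMN2* lower, where 34.1% of all tested genes were called. *TH* and *CHGA*, both defining for the lineage, were listed at 0 in all 6 libraries. All 31-base words of *CHGA* also occur on alternate contigs of the genome, but 0.0% of those of *TH* do. Mesenchymal markers, whose summed level was 7996 to 8235 CPM with GFP and 8181 to 9168 CPM with Flag-ERRg, had 0 of 8 genes called by edgeR. Glial markers summed to 10.3 to 11.5 CPM against 7.66 to 8.71 CPM, with 0 of 4 called, and skeletal muscle markers to 3.26 to 4.04 CPM against 3.23 to 4.16 CPM, with the defining factors *MYOD1* and *MYOG* at or under 3 counts in every library. The part of these differences in the results below was not tested. The share of reads assigned to no gene was fitted as a covariate in an alternative. Its values did not overlap between the groups, so in that fit the share and the virus cannot be told apart.

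The 7 members fell into 2 classes by count. *CHRNA3*, *CHRNA5*, *CHRNB4* and *CHRNB2* had between 58 and 2813 counts in every library and passed edgeR's filter on low counts, which 24500 genes passed. *CHRNA9*, *CHRNA7* and *CHRNA4* had at most 9 counts in any library and were not tested. A gene was called at a Benjamini-Hochberg adjusted p below 0.05 in edgeR's quasi-likelihood test and a fold change of at least 1.5. Of the 7 members 3 were called, all lower with Flag-ERRg, and 0 were higher. Over all tested genes 34.1% were called, 17.3% higher and 16.8% lower, so the call itself was common in this comparison, and the median log2 fold change was −0.10. The CPM values of the groups did not overlap for 58.1% of tested genes, so separation was common as well. Because these are whole cultures, fewer cells expressing a gene and less RNA per cell cannot be told apart.

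**Figure D1:**
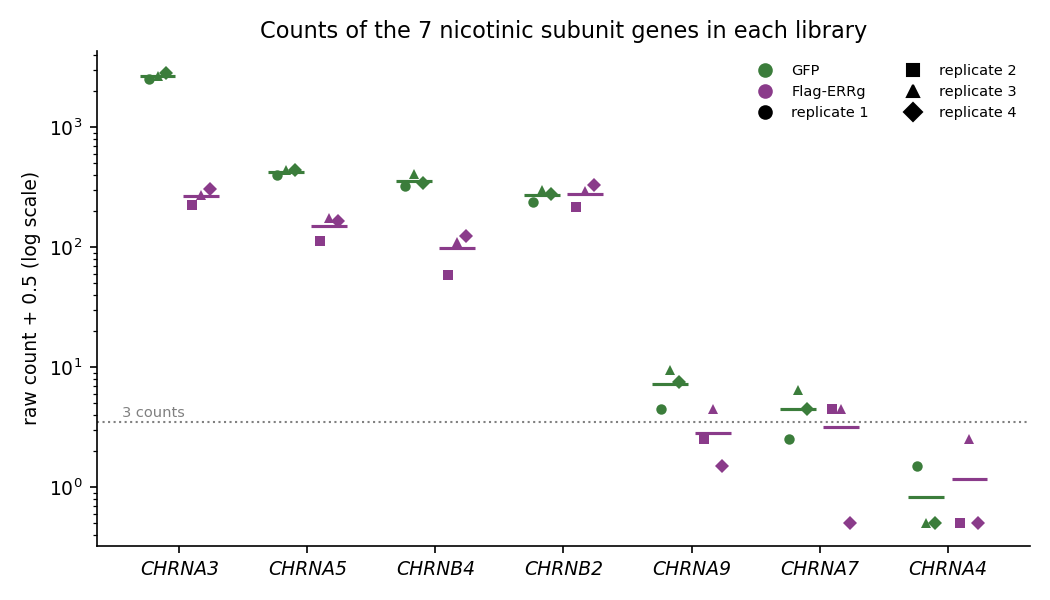
Raw counts (plus 0.5, log axis) of the 7 subunit genes in each of the 6 libraries, with horizontal lines at the group means and symbols by replicate number. *CHRNA3*, *CHRNA5* and *CHRNB4* separate by group, *CHRNB2* does not, and *CHRNA9*, *CHRNA7* and *CHRNA4* lie between 0 and 9 counts around the dotted line at 3 counts.

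*CHRNA3* (ENSG00000080644, chr15:78593052-78621295, minus strand) encodes the principal alpha subunit of the ganglionic receptor. It had 2507, 2650 and 2813 counts in GFP replicates 1, 3 and 4. In Flag-ERRg replicates 2, 3 and 4 it had 222, 271 and 307 counts. Every GFP library was above every Flag-ERRg library with a wide gap. It was lower with Flag-ERRg by a log2 fold change of −3.35 ± 0.10 (SE, n = 3 per group, 95% confidence interval −3.57 to −3.13; adjusted p = 5.23e-08, edgeR). Only 39 of the 24500 tested genes, 18 of them among the 13746 protein-coding ones, had a log2 fold change at or below this value. With the unassigned share as a covariate the log2 fold change was −3.40, and without Flag-ERRg replicate 2 it was −3.23.

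*CHRNB4* (ENSG00000117971, chr15:78624111-78727754, minus strand) encodes the beta subunit that pairs with it in ganglia. Its counts were 325, 403 and 345 with GFP. With Flag-ERRg they were 58, 110 and 124, the lowest in replicate 2, and the groups did not overlap. It was lower by a log2 fold change of −1.93 ± 0.19 (SE, n = 3 per group, 95% confidence interval −2.35 to −1.52; adjusted p = 4.57e-05, edgeR), with 287 tested genes at or below it. Of the 4 tested members its value moved most over the alternatives. Its log2 fold change was −1.65 without Flag-ERRg replicate 2 and −2.66 with the unassigned share as a covariate, and it was called lower in both.

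*CHRNA5* (ENSG00000169684, chr15:78565520-78595269, plus strand) encodes the accessory subunit. Its counts were 397, 443 and 438 with GFP. With Flag-ERRg they were 111, 173 and 164, and again the groups did not overlap, as for 58.1% of all tested genes. The log2 fold change was −1.56 ± 0.13 (SE, n = 3 per group, 95% confidence interval −1.84 to −1.28; adjusted p = 1.78e-05, edgeR), with 606 tested genes at or below it. It was −1.37 without Flag-ERRg replicate 2 and −1.80 with the covariate.

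*CHRNA5* and *CHRNA3* converge and their last exons overlap on opposite strands. Exons of *CHRNA3* and of a long noncoding RNA on the minus strand cover 28.4% of the exon bases of *CHRNA5*, and 4.16% of those of *CHRNA3* are covered from the other strand. The strand setting of the counting is not given in the sources used here. Among genes whose exons lie wholly under exons of the opposite strand, 28 of 794 (3.53%) had any count, against 64.9% of genes of the same types with no exon overlap. Counting that ignores strand and sets aside reads shared by overlapping genes would give such a pattern. The *CHRNA5* counts would then come mostly from the bases that no other gene covers, and its level per kilobase of all its exon bases would be too low. *CHRNB4* and *CHRNB2* were covered from the other strand over 3.31% and 5.46% of their bases.

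*CHRNB2* (ENSG00000160716, chr1:154567778-154580013, plus strand) encodes the beta subunit of the common brain receptor, and lies outside the cluster. Its counts were 239, 300 and 279 with GFP and 214, 292 and 326 with Flag-ERRg. The groups overlapped once scaled to library size. The log2 fold change was −0.02 ± 0.13 (SE, n = 3 per group; adjusted p = 0.919, edgeR). The 95% confidence interval, −0.30 to 0.26, does not reach the 1.5-fold threshold for calling in either direction. The sign of this small value depended on the scaling and on single libraries, and it was 0.15 without Flag-ERRg replicate 2 and −0.23 with the covariate. Scaled by library size alone it was −0.35 (adjusted p = 0.0433, edgeR), and corrected for GC content and exon length −0.38 (adjusted p = 0.0126, edgeR), which passed the p threshold but not 1.5-fold.

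The remaining members were near the limit of detection. At these depths 3 counts, taken here as the limit of detection, correspond to 0.0880 to 0.112 CPM, and this limit covers counting error only. *CHRNA9* (chr4:40335333-40355217) had 4, 9 and 7 counts with GFP and 2, 4 and 1 with Flag-ERRg, and its CPM values did not overlap between groups. Over all tested genes the groups did not overlap for 58.1%, and in a fit without the filter on low counts the adjusted p of *CHRNA9* was 0.154 (edgeR). *CHRNA7* (chr15:31923438-32173018) had 2, 6 and 4 counts with GFP and 4, 4 and 0 with Flag-ERRg, which overlap (adjusted p = 0.667 in the same fit). *CHRNA4* (chr20:63343223-63378401) had 1 count in GFP replicate 1, 2 in Flag-ERRg replicate 3 and 0 in the other 4 libraries, so no fold change is given. No difference was detected in these 3 genes, whose counts give little precision.

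The *CHRNA7* count is also a matter of mapping. Part of *CHRNA7* is duplicated on the same chromosome as *CHRFAM7A*, a fusion gene. Of the 31-base words of the *CHRNA7* exons, 64.7% also occurred elsewhere on the chromosomes and 96.0% occurred on alternate contigs of the genome. *CHRFAM7A* had 2, 3 and 10 counts with GFP and 2, 3 and 2 with Flag-ERRg. Whether the authors aligned to alternate contigs is not given in the sources used here, and reads that align to several places are set apart by HTSeq-count unless it is told otherwise, so the low counts of *CHRNA7* are uncertain as a level. The other members shared at most 1.54% of their words with alternate contigs, and *CHRNA5* and *CHRNB4* shared 8.62% and 7.58% with other places on the chromosomes.

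To set the subunits against each other, CPM values were divided by exon length in kilobases. On this scale *CHRNA3* was the highest with GFP, at 18.2 CPM per kb. *CHRNA5* followed at 3.83, *CHRNB4* at 2.34 and *CHRNB2* at 1.51 CPM per kb. With Flag-ERRg the levels were 1.78 for *CHRNA3*, 1.49 for *CHRNB2*, 1.30 for *CHRNA5* and 0.607 CPM per kb for *CHRNB4*. With GFP no 2 of these levels overlapped between genes over the 3 libraries. With Flag-ERRg *CHRNA3* (1.69 to 1.89 CPM per kb over libraries) stood just above *CHRNB2* (1.36 to 1.63), *CHRNB2* and *CHRNA5* (1.15 to 1.42) overlapped, and *CHRNB4* (0.435 to 0.730) was below the others. That order depended on the bases used. Divided by the exon bases not covered from the other strand, a calculation chosen after seeing the data, *CHRNA5* was at 1.81 CPM per kb with Flag-ERRg (1.60 to 1.98 over libraries). *CHRNA3* was then at 1.85 (1.76 to 1.97) and *CHRNB2* at 1.57 (1.44 to 1.72), so *CHRNA5* came before *CHRNB2* and overlapped with both. With GFP the order of the 4 genes was the same on either scale. The other 3 members were at or below 0.0679 CPM per kb in either group.

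The members' summed level was 26.4, 26.3 and 25.1 CPM per kb in GFP replicates 1, 3 and 4. It was 4.72, 5.29 and 5.59 CPM per kb in Flag-ERRg replicates 2, 3 and 4, with no overlap. *CHRNA3* made up 70.1% ± 1.5 of that sum with GFP and 34.3% ± 2.52 with Flag-ERRg (SD, n = 3 in each group). The share of *CHRNB2* was 5.81% ± 0.411 with GFP and 28.6% ± 0.645 with Flag-ERRg, and that of *CHRNA5* was 14.8% ± 0.238 and 25.0% ± 1.63. For *CHRNB4* the shares were 9.01% ± 0.828 and 11.6% ± 2.05. Over the bases not covered from the other strand, the shares with Flag-ERRg were 31.5% ± 2.42 for *CHRNA3*, 30.7% ± 1.85 for *CHRNA5* and 26.7% ± 0.729 for *CHRNB2*. The shares sum to the same whole, so a lower share of *CHRNA3* raises the others without any change in their own level.

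**Figure D2:**
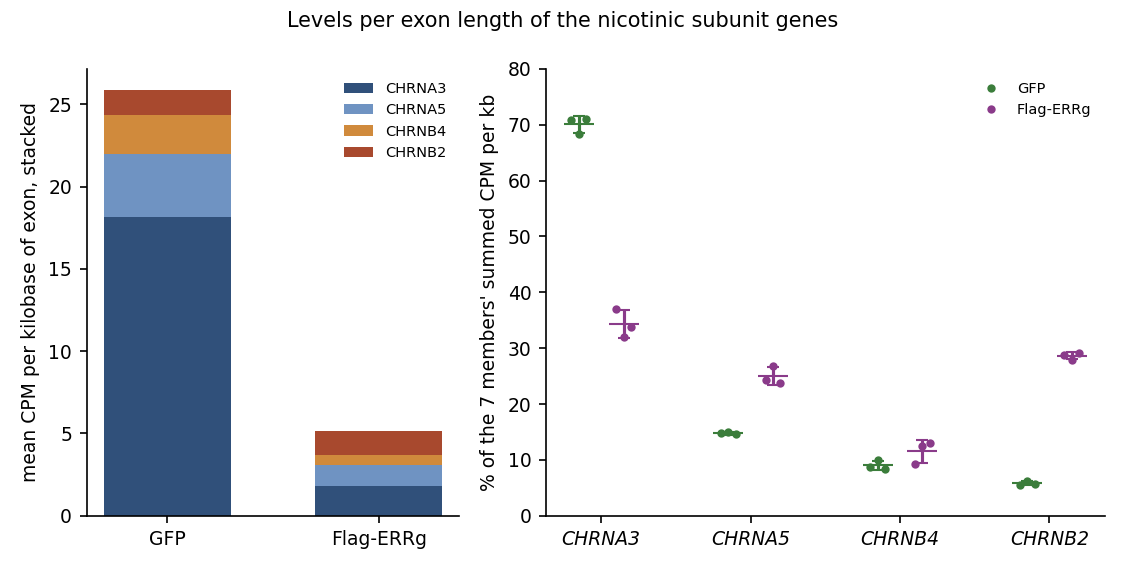
Left, mean CPM per kilobase of exon in each group, stacked for the 4 members that passed the filter on low counts. Right, each member's percentage of the summed level of all 7 in each library (points), with the group mean and SD; *CHRNA3* went from 70.1% to 34.3% and *CHRNB2* from 5.81% to 28.6%.

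Of the 3 linked genes *CHRNA3* fell the most. The 95% confidence intervals of *CHRNA5* (−1.84 to −1.28) and *CHRNB4* (−2.35 to −1.52) overlapped. Ratios of the 3 genes within a library, which do not depend on scaling between libraries, were compared on a log2 scale with 0.5 added to each count. For *CHRNA5* over *CHRNA3* the log2 ratio of counts was −2.66, −2.58 and −2.68 with GFP and −0.997, −0.646 and −0.902 with Flag-ERRg. The ratio was thus 3.46-fold higher with Flag-ERRg, and every Flag-ERRg library was above every GFP library. For *CHRNB4* over *CHRNA3* the log2 ratios were −2.95, −2.72 and −3.03 with GFP and −1.93, −1.30 and −1.30 with Flag-ERRg, a 2.61-fold difference with no overlap. For *CHRNA5* over *CHRNB4* they were 0.29, 0.14 and 0.34 with GFP and 0.93, 0.65 and 0.40 with Flag-ERRg, a 1.32-fold difference in which the nearest libraries of both groups almost met. Each of the 3 comparisons gave an exact two-sided permutation p of 0.1, also 0.1 after adjustment over the 3, which is the smallest p that 3 against 3 libraries can give.

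Protein-coding genes within 300 kb on either side of the cluster were compared in the same fit. Of 10 such neighbours 9 were tested, 1 was called higher, 1 lower and 7 were not called, and their median log2 fold change was 0.08. Of all tested genes 34.1% were called, and their median was −0.10. *HYKK*, which encodes hydroxylysine kinase, is the next gene but one on the *CHRNA5* side and was lower, with 73, 67 and 66 counts with GFP and 16, 49 and 56 with Flag-ERRg. Its log2 fold change of −0.84 ± 0.31 (SE, adjusted p = 0.0454, edgeR) was close to the threshold. Over all alternatives the value ran from −2.287 to −0.235. It was −0.42 without Flag-ERRg replicate 2 (adjusted p = 0.0890, edgeR), and the call was lost on leaving out any 1 library other than Flag-ERRg replicate 4. DESeq2 did not call it either. *PSMA4*, a proteasome subunit gene between *HYKK* and *CHRNA5*, had a log2 fold change of 0.40 and was not called, since it stayed under 1.5-fold. *ADAMTS7*, a metalloprotease gene beyond *CHRNB4*, had −0.35 and *IREB2*, an iron regulatory protein gene, −0.07, and neither was called. *CRABP1*, a retinoic acid binding protein gene near the far end of the span, was higher, with 147, 178 and 164 counts with GFP and 382, 779 and 934 with Flag-ERRg (log2 fold change 2.03 ± 0.21, adjusted p = 6.87e-05, edgeR). A noncoding gene on the other strand covers 45.9% of the exon bases of *CRABP1*, and reads from the shared bases may be missing from its count. *SKIC8*, *MORF4L1*, *CTSH* and *DNAJA4* had log2 fold changes from −0.32 to 0.47 with no call, and *RASGRF1* had at most 1 count in a library.

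**Figure D3:**
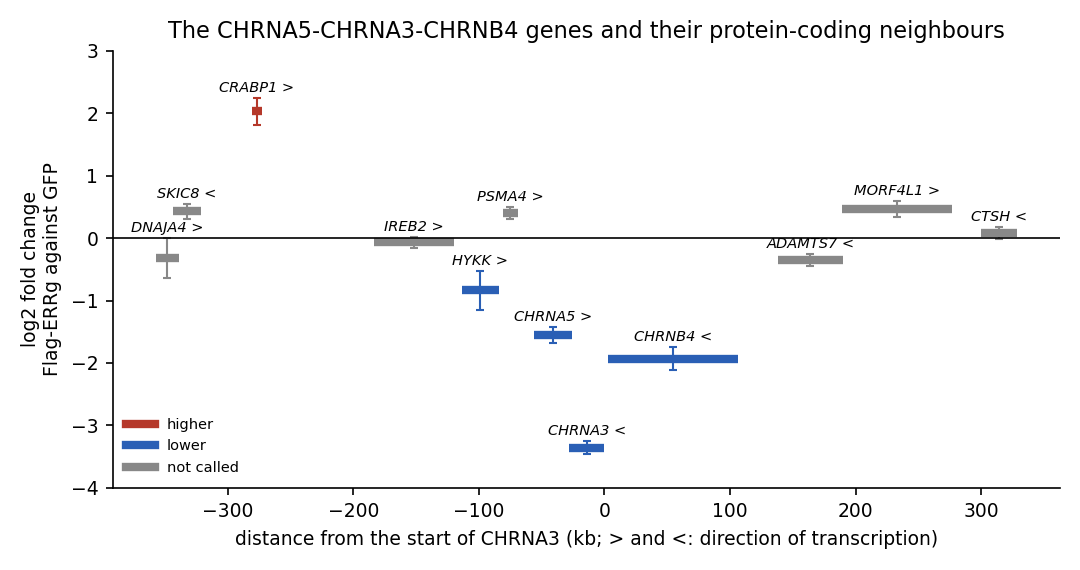
Log2 fold change (Flag-ERRg against GFP, bars ± SE) of *CHRNA5*, *CHRNA3*, *CHRNB4* and the tested neighbours, drawn over their annotated extent in kb from the start of *CHRNA3*. The 3 subunit genes lie between −3.35 and −1.56, *HYKK* at −0.84, and *PSMA4*, which sits between *HYKK* and *CHRNA5*, at 0.40.

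Of the other 9 nicotinic subunit genes 4 were tested and 0 were called by edgeR, with 0 below an unadjusted p of 0.05 and 0 called by DESeq2. *CHRNA10*, the partner of *CHRNA9*, had 66, 70 and 65 counts with GFP and 53, 52 and 52 with Flag-ERRg, a log2 fold change of −0.38 ± 0.20 (SE, adjusted p = 0.145, edgeR). Its direction held under every scaling tried, and it was called lower when library size was the only scaling (−0.70) and after correction for GC content and length (−0.81). *CHRND* and *CHRNG*, subunits of the muscle receptor, had log2 fold changes of 0.12 and 0.01, and both changed sign when library size was the only scaling. *CHRNE*, the adult muscle subunit, had 19, 4 and 12 counts with GFP and 10, 4 and 3 with Flag-ERRg, a log2 fold change of −1.05 ± 0.66 that was not called. *CHRNE* and *CHRNG* are covered from the other strand over 59.6% and 66.9% of their exon bases. *CHRNA6*, a subunit of receptors on dopaminergic neurons, had 1, 6 and 3 counts with GFP and 7, 8 and 11 with Flag-ERRg. Its CPM values did not overlap, as for 58.1% of all tested genes (adjusted p = 0.135 without the filter, edgeR). *CHRNA1*, *CHRNA2* and *CHRNB3* had at most 5 counts in any library, and *CHRNB1* was listed at 0 in all 6.

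Proteins that help nicotinic receptors fold, reach the membrane or respond made up a list of 15 genes, of which 13 were tested. There were 4 called higher and 3 lower, with a median log2 fold change of 0.23. All tested genes gave 17.3% higher and 16.8% lower calls, with a median of −0.10. *LYPD6* and *LYPD6B*, membrane-anchored relatives of snake toxins that act on nicotinic receptors, were both lower. *LYPD6* had 1505, 1535 and 1709 counts with GFP and 559, 750 and 688 with Flag-ERRg (log2 fold change −1.29 ± 0.09, adjusted p = 8.04e-06, edgeR). *LYPD6B* had 409, 415 and 501 against 174, 167 and 178 (−1.37 ± 0.14, adjusted p = 5.23e-05, edgeR). Their relatives *LYNX1* and *LYPD1* went the other way, with log2 fold changes of 1.06 and 1.59 that were called higher. After correction for GC content and length *LYNX1* was at 0.57 and was not called. *LYPD1* had 14, 26 and 35 counts with GFP and 56, 91 and 84 with Flag-ERRg, and opposite-strand exons cover 29.7% of its bases.

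Of the chaperones, *TMEM35A*, whose product is known as NACHO and is needed for assembly of several nicotinic receptors, was higher, with 438, 508 and 543 counts against 581, 893 and 1032 (log2 fold change 0.70 ± 0.13, adjusted p = 0.00119, edgeR). That call was lost when library size was the only scaling, where the value was 0.37, and with the unassigned share as a covariate (0.29). *RIC3*, a chaperone of *CHRNA7* receptors, had 171, 197 and 165 counts against 125, 110 and 138, a log2 fold change of −0.54 (adjusted p = 0.0274, edgeR) just under 1.5-fold. It was called lower when library size was the only scaling (−0.85), over protein-coding genes only (−0.68), without GFP replicate 4 (−0.64) and with the replicate block (−0.63). *CRELD2*, which encodes a protein of the endoplasmic reticulum, was higher by 0.95 on the log2 scale, and was not called with that covariate (0.45). *MUSK*, a kinase of the neuromuscular junction, had a log2 fold change of −0.79 and was called lower, but its counts of 181, 189 and 166 against 138, 77 and 96 overlapped after scaling, and with the covariate the value was 0.12. *UBXN2A*, *VSNL1*, *UNC50*, *RAPSN* and *AGRN* were not called, and *LY6H* and *LY6E* had at most 1 count in any library. All words of *LY6H* occur on an alternate contig.

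For acetylcholine itself, *CHAT*, the synthesizing enzyme, had between 2 and 11 counts and *SLC5A7*, the choline transporter, between 0 and 2, so neither was tested. *SLC18A3*, the vesicular transporter, had 64, 84 and 99 counts with GFP and 62, 77 and 118 with Flag-ERRg (log2 fold change 0.02). *ACHE*, which breaks acetylcholine down, was the 1 gene called of the 4 tested from this list of 7, against 34.1% of all tested genes. It had 77, 94 and 110 counts with GFP and 132, 196 and 192 with Flag-ERRg (log2 fold change 0.85 ± 0.16, adjusted p = 0.00157, edgeR), and was not called when library size was the only scaling (0.52).

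The muscarinic receptors, which respond to acetylcholine through G proteins, gave 1 lower call of 3 tested. Among all tested genes 16.8% were called lower. *CHRM2* had 4445, 4681 and 4874 counts with GFP. With Flag-ERRg it had 1136, 1061 and 1167, with no overlap, as for 58.1% of all tested genes. Its log2 fold change was −2.08 ± 0.12 (SE, adjusted p = 2.28e-06, edgeR). On the per-length scale its level with GFP, 18.2 CPM per kb, was close to that of *CHRNA3*, and with Flag-ERRg it was 4.33 CPM per kb. *CHRM3* had 1536, 1543 and 1650 counts against 1432, 1604 and 1479, a log2 fold change of −0.09 that was not called, as was *CHRM5* at −0.31.

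Of 9 transcription factors known to act on nicotinic subunit promoters, 7 were tested, 4 called higher and 1 lower, with a median log2 fold change of 0.81. Among all tested genes 17.3% were called higher and 16.8% lower, with a median of −0.10. *SP1* and *SP3* encode factors known to bind GC boxes in general. *SP3* was lower, with 4018, 4141 and 4371 counts against 2445, 2510 and 2399 (log2 fold change −0.79), but was not called with the covariate (−0.46) or after correction for GC content and length (−0.40). *SP1* had a log2 fold change of −0.26 and was not called. *JUN*, a partner in AP-1, had 1040, 1435 and 1409 counts against 2607, 4212 and 4556 (log2 fold change 1.5 ± 0.14, adjusted p = 3.09e-05, edgeR). *PHOX2A*, *EGR1* and *USF1* were higher by 0.81, 0.82 and 0.90 on the log2 scale, and each lost its call when library size was the only scaling. *SOX10* had a log2 fold change of −0.18, and *POU4F1* and *POU3F1* had at most 4 counts.

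**Figure D4:**
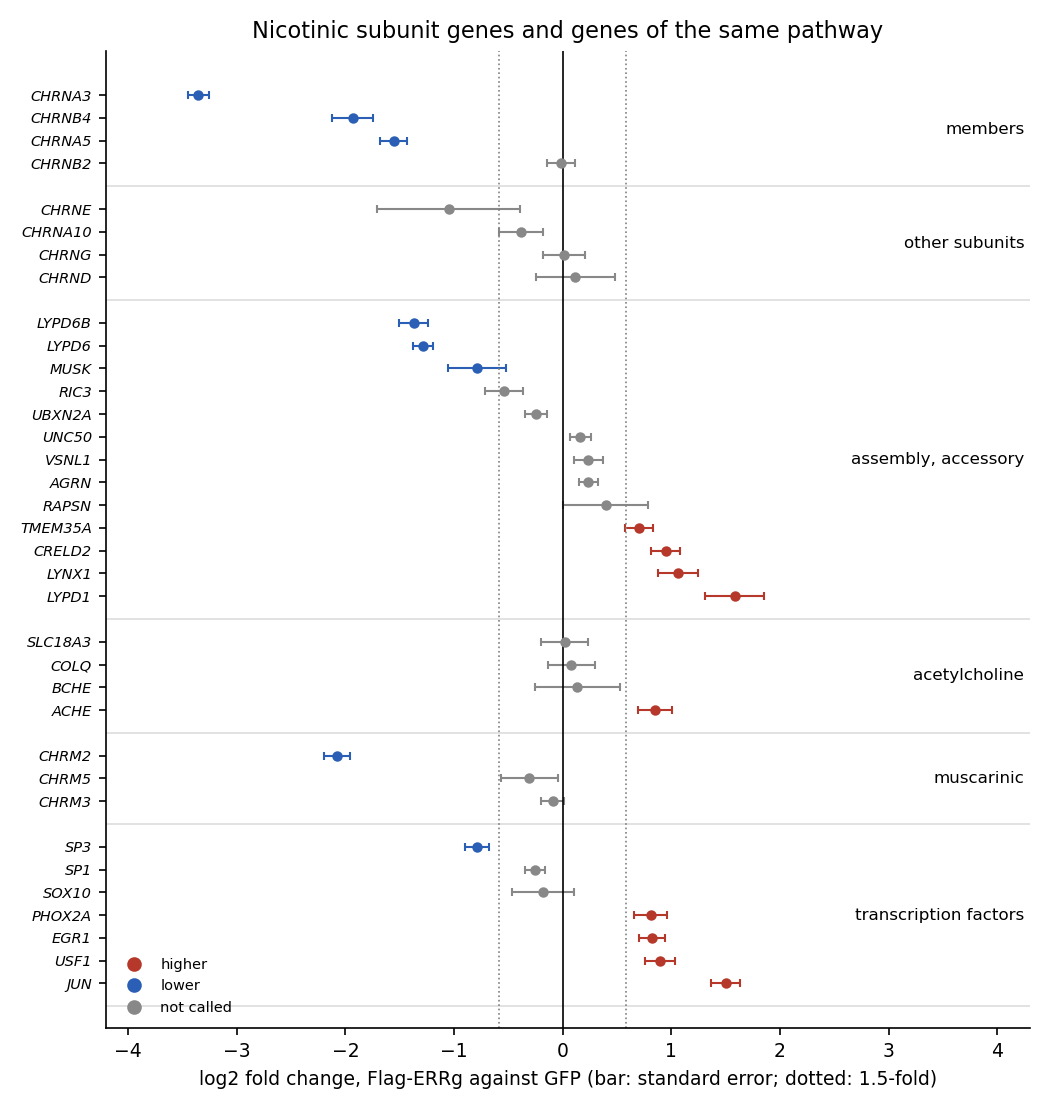
Log2 fold change (Flag-ERRg against GFP, bars ± SE) of the tested members and of the tested genes of 5 related lists, coloured by call, with dotted lines at 1.5-fold. Besides *CHRNA3*, *CHRNB4* and *CHRNA5*, the lowest values drawn were those of *CHRM2* at −2.08 and *LYPD6B* at −1.37.

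For each cluster gene the 3 protein-coding genes nearest in pattern were sought among 12563 tested genes of at least 1 CPM, by the Euclidean distance between log2 CPM values centred over the 6 libraries. For *CHRNA3* they were *RTL1*, *SCN11A*, a sodium channel gene, and *SPTSSB*, a small subunit of serine palmitoyltransferase, at distances of 0.313, 0.453 and 0.458. For *CHRNA5* they were *MEGF6*, *BNIP3L*, a mitophagy receptor gene, and *PLEKHG4B*, at 0.130, 0.187 and 0.222. For *CHRNB4* they were *DDC*, which makes dopamine from L-DOPA, *XPNPEP2*, an aminopeptidase gene, and *KIT*, a receptor tyrosine kinase gene, at 0.245, 0.274 and 0.367. With 6 libraries in 2 groups, these distances mostly describe the size of the difference between groups.

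**Figure D5:**
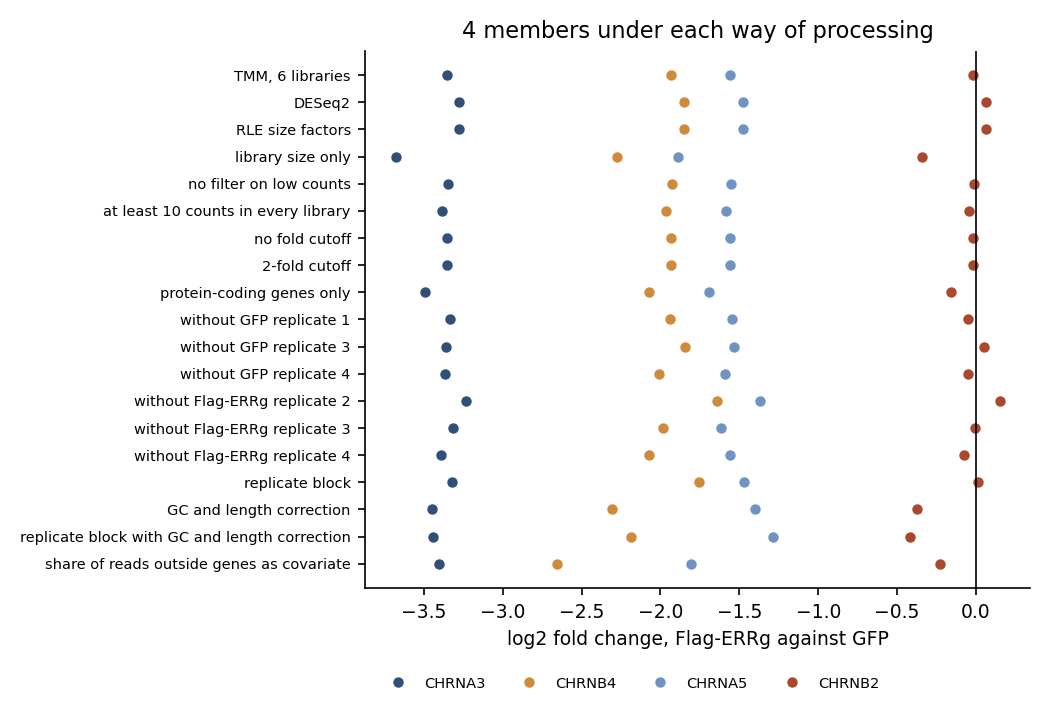
Log2 fold change of the 4 tested members in the reported fit (top row) and in each of 18 other ways of processing. The rows for other fold cutoffs repeat the reported fit. *CHRNA3*, *CHRNB4* and *CHRNA5* stayed lower in every row (−3.68 to −3.23, −2.66 to −1.65 and −1.89 to −1.28), and *CHRNB2* ran from −0.42 to 0.15 on both sides of 0.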

How the data were processed

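RNA sequencing of 6 SH-SY5Y libraries was analysed, 3 per virus. The deposited values are raw counts that the authors made per human gene. Per the labels, reads were trimmed with Trim Galore 0.6.7, aligned to GRCh38 with STAR 2.7.9a and counted with HTSeq 0.11.3; the annotation release and strand setting are not given in the sources used here. Identifiers were matched without version to GENCODE release 44, which held 60419 of 67060 genes.

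Counts were analysed with edgeR 4.0.16 in R 4.3.3 (filterByExpr with a minimum count of 10, TMM scaling, quasi-likelihood test, Benjamini-Hochberg adjustment over 24500 genes). Calls needed an adjusted p below 0.05 and at least 1.5-fold. CPM values use the TMM factors. Levels per length use all annotated exon bases. Summary entries for reads outside genes (29.5% to 52.2%), ambiguous reads and reads at several places were left out of library sizes. Ambiguous reads were 4.55% to 4.87% with GFP and 5.69% to 9.84% with Flag-ERRg. Reads at several places were 7.16% to 7.41% with GFP and 9.33% to 13% with Flag-ERRg. The part of these shares in the gene levels was not tested. Library pairs within a group differed by more than sampling noise, so none was counted as a duplicate. Within-library ratios were compared with exact permutation tests. Tables, words of 31 bases, motifs and plots were made with Python 3.11.15. The fits were tested on simulated data.

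The members and lists were chosen with earlier results of these data known. The named genes were the members, every gene of the fixed lists, protein-coding neighbours within 300 kb, marker genes, *ESRRG* and, for each cluster gene, the 3 genes nearest in pattern; members of long lists that were not called are given by counts or ranges, and some listed genes are not reported here and were left out of the lists. Alternatives were DESeq2 1.42.0, RLE size factors, library size only, other filters and cutoffs, a restriction to protein-coding genes, omission of each library in turn, replicate number as a block, correction for GC content and length (mgcv 1.9.3) with and without that block, the unassigned share of reads as a covariate and, chosen after seeing the data, levels over exon bases not covered from the other strand.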

Additional observations from a re-analysis of the deposited data

How the results depend on the processing

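*CHRNA3*, *CHRNA5* and *CHRNB4* were called lower in all 18 alternatives, with highest adjusted p-values of 2.52e-06, 0.000312 and 0.000576 (edgeR or DESeq2), and the number of members called was 3 in each. The alternatives without a fold cutoff and with a 2-fold cutoff reuse the reported fit, so their fold changes and p-values are the same as in it. Leaving out 1 library at a time gave log2 fold changes of −3.39 to −3.23 for *CHRNA3*, −1.62 to −1.37 for *CHRNA5*, −2.07 to −1.65 for *CHRNB4* and −0.078 to 0.149 for *CHRNB2*. *CHRNB2* was called in none (−0.42 when GC content and length were corrected in a fit with the replicate block, past the p threshold but not 1.5-fold), and its sign turned with DESeq2 and RLE size factors (0.063 in both), without GFP replicate 3 (0.052), without Flag-ERRg replicate 2 (0.149) and with the replicate block (0.011). Library size as the only scaling moved the median log2 fold change of all tested genes from −0.10 to −0.42. It gave 2200 higher and 7566 lower calls against 4234 and 4117. In that fit the log2 fold changes were −3.68 for *CHRNA3*, −2.28 for *CHRNB4* and −1.89 for *CHRNA5*. These values are not corrected for the moved median, and each was below it. DESeq2 gave 4728 higher and 3219 lower calls, and the covariate 1773 and 1323.

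The labels give replicates 3 and 4 only a shared number between groups, and do not say whether they were paired. The correlations of their deviations were 0.075 and 0. Flag-ERRg replicate 2 stood apart and weighs on these deviations, so the correlations cannot settle it. With the replicate block the log2 fold changes were −3.32 for *CHRNA3*, −1.47 for *CHRNA5* and −1.76 for *CHRNB4*, all called, and 10435 genes were called against 8351. Replicate 1 was only in the GFP group and replicate 2 only in the Flag-ERRg group. In this fit the group difference therefore came from replicates 3 and 4 alone.

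Among related lists, 1 to 6 transcription factors, 4 to 8 assembly and accessory genes, 1 to 6 neighbours and 0 to 2 other subunits were called, depending on the alternative. Calls of *ACHE*, *SP3*, *PHOX2A* and *EGR1* were lost both after correction for GC content and length and with the covariate. *RIC3*, not called in the reported fit, was called lower in 5. *HYKK* was called in 7 of 18 alternatives and *MUSK* in 11. *CHRNE* was called lower without Flag-ERRg replicate 2 (−1.74) and had the opposite sign with the covariate (0.67). The causes were not tested. Ratios within libraries differed by 1.69 to 1.86, 1.28 to 1.59 and 0.27 to 0.54 on the log2 scale when a library was left out or the added count changed. Levels over the exon bases not covered from the other strand, an alternative chosen after seeing the data, were 19 CPM per kb for *CHRNA3* with GFP, and 5.35 with GFP and 1.81 with Flag-ERRg for *CHRNA5*. *CHRNA9*, *CHRNA7* and *CHRNA4*, with fewer than 10 counts in every library, were too shallow to pass the filter.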
